A study of Monodelphis domestica and Mus musculus and Sus scrofa with 73 samples.

Results

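The hind limb of a fruit bat, Carollia perspicillata, was compared between embryonic stages 13 and 14, which the study calls the ridge and the bud. The libraries were chosen by their stage label alone, and there were 3 at each stage, 6 of the 16 bat libraries analysed here and of the 73 samples in the series. Embryos came from wild bats collected in the field in Trinidad, and no treatment or genetic change was applied to any of them. The labels give no sex, litter or mother, and do not say whether a library holds the limbs of 1 embryo or of several. P-values therefore measure the spread between these libraries, and nothing shows that all of it is biological. The 3 stage 13 and 3 stage 14 forelimb libraries, of which 2 at stage 14 carry the label ES in place of a stage number, and the 2 hind limb libraries of stage 15, the paddle, were used only beside the hind limb result.

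A mammalian limb begins as a low thickening of mesenchyme on the flank under a cap of ectoderm. At the ridge stage this field has just become visible, and at the bud stage it grows out under signals from the apical ectodermal ridge, a strip of specialised ectoderm along its edge. In mammals the hind limb usually trails the forelimb, and in bats the forelimb goes on to form the wing while the hind limb stays small.

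The genes of this bat are assembled sequences that the deposited tables identify by number and do not pair with gene names. No limb gene, tissue marker or pathway could be looked up, so the labelled tissue could not be checked against its markers. The changed genes are therefore described as groups, by size and direction of change, level, length and number of isoforms. Only 4 genes are identified singly. Of 27026 genes in each table, 15007 passed the filter, which asked for 10 or more rounded counts in 3 or more of the 6 libraries, and they held about 99.9% of each library's counts. Of the 12019 genes that failed, 2657 had no count in any of the 6 libraries. Some 667 failing genes reached 10 counts in exactly 2 libraries, with a median mean count of 8.0, and 570 passing genes reached it in exactly 3, with a median of 11.8.

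The depth of a library, the sum of its expected counts, ranged from 16285242 to 23526020 at stage 13 and from 17910029 to 61814821 at stage 14. A count of 3 corresponded to between 0.0485 and 0.184 CPM (counts scaled to 1000000 per library), and such limits cover counting error only. In addition to depth, the stages differed in the detection of short genes. Of the 5598 genes under 300 bases, between 24.2% and 25.7% had at least 1 count in the stage 13 libraries. The share was 11.6% in stage 14 replicates 1 and 2 and 19.8% in replicate 3, which lay between the others and stage 13. With counts thinned to equal depth, the shares were 24.2%, 25.1% and 19.7% in stage 13 replicates 1, 2 and 3. At stage 14 they were then 8.86%, 6.25% and 18.8%, so replicate 3 of each stage lay close to the other. The difference at equal depth, stage 14 minus 13, was -11.7 percentage points. At full depth the 10.5 percentage point difference between the stages gave an exact permutation p of 0.1 (two-sided, n = 3 and 3). That is the smallest p that this design allows. When a gene needed 3 counts to be detected, the difference was 1.25 percentage points (exact permutation p of 0.2).

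Of the 15007 genes tested, 1596 (10.6%) differed between the stages at a Benjamini-Hochberg adjusted p under 0.05 in edgeR's quasi-likelihood test. At stage 14, 633 genes (4.22%) were higher and 963 (6.42%) were lower. The genes that rose had a median log2 fold change of 0.94, and the genes that fell had a median of -1.30, against a median of 0.00 over all genes tested. In this fit the falls were the larger group in number and in median size. The balance was not the same in every fit. With all 16 bat libraries fitted together, 1115 genes were higher and 1098 lower. With the share of short genes detected at equal depth as a covariate, 70 were higher and 26 lower. A change of more than 2-fold was fitted for 283 of the genes that rose (44.7%) and for 669 of those that fell (69.5%), and one of more than 4-fold for 85 and 177 of them. Over all genes tested, 13.3% had a fitted change of more than 2-fold. When the test asked for a change past 1.5-fold rather than for any change, 295 genes (1.97%) passed, 91 higher (0.606%) and 204 lower (1.36%). With 1 library left out, that count ran from 38 (19 higher, 19 lower) without stage 14 replicate 1 to 480 (90 higher, 390 lower) without stage 14 replicate 3. It was 182 without stage 13 replicate 2, 83 without stage 13 replicate 3 and 63 without stage 14 replicate 2.

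**Figure D1:**
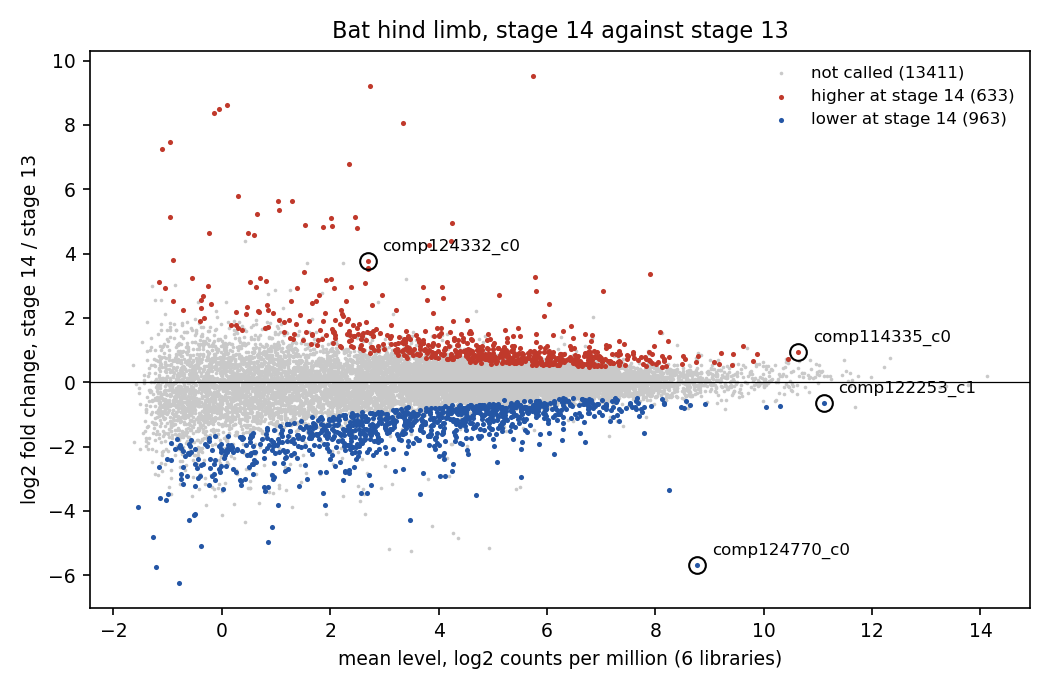
Log2 fold change of stage 14 over stage 13 (vertical axis) against mean level in log2 CPM (horizontal axis) for the 15007 genes tested in the hind limb. Red points are the 633 genes called higher at stage 14, blue points the 963 called lower and grey points the genes not called, and circles mark the 4 genes identified in the text. The blue points lie mainly below the grey cloud at low and middle levels, and a few red points stand far above it.

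All 633 genes that rose, and 960 of the 963 that fell, had no overlap between the 3 libraries of one stage and the 3 of the other. No overlap was seen in 5246 genes tested (35.0%), so most of the genes whose libraries were separated by stage did not pass the adjusted test. Among the calls, 61 genes (36 higher, 25 lower) reached 10 counts in every library of one stage and in none of the other, and so passed the filter through that stage only. They were 37.9% of the tested genes with this pattern, against 10.6% called of all genes tested. The pattern itself requires counts that differ between the stages, so a high share called is built into this class. The other calls were mainly of genes counted at both stages, since 13224 genes reached 10 counts in all 6 libraries and 1417 of them were called, 569 higher and 848 lower. Of the genes that rose, 5 had no count in any stage 13 library, and no gene that fell was without counts in every stage 14 library.

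Together the genes that rose took 3.00% ± 0.0329 (SD, n = 3) of the expected counts at stage 13 and 5.17% ± 0.262 (SD, n = 3) at stage 14. The genes that fell took 4.53% ± 0.327 (SD, n = 3) and 2.25% ± 0.258 (SD, n = 3). The division by stage was not equally sharp in every library. Stage 14 replicate 1 lay farthest from stage 13: its median log2 difference from the stage 13 mean was 1.09 over the genes that rose and -1.40 over those that fell. The corresponding medians were 0.87 and -1.21 in replicate 2 and 0.92 and -1.17 in replicate 3. Replicate 3 was the stage 14 library nearest to stage 13 in 44.9% of the genes that fell. On the stage 13 side, replicate 1 was the library nearest to stage 14 in 54.0% of the genes that fell, and replicate 3 in 12.7%. These shares come from the values that chose the genes and describe the libraries only.

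The number of genes called depended on which libraries entered the fit. Without stage 13 replicate 2 the count was 806, and without stage 13 replicate 3 it was 379. Without stage 14 replicate 1 it was 455, and without stage 14 replicate 2 it was 630. In contrast, it was 1446 without stage 13 replicate 1 and 1986 without stage 14 replicate 3, the library with the intermediate share of short genes. In each of these 6 fits, all of the original calls that were still tested, between 1555 and 1569 genes, had the same direction. Because all the rises and 960 of the 963 falls had no overlap between the stages, leaving out 1 library could hardly change a direction. The file names of the 3 stage 13 libraries and of stage 14 replicate 1 share a form that gives a year, and those of stage 14 replicates 2 and 3 do not. Within that form, stage 14 replicate 1 alone against stage 13 gave 1491 genes, 715 of them among the 1596, with the spread taken from stage 13 only. Each of the 6 libraries also has a sequencing lane number of its own in its file name, so lane and library cannot be told apart. DESeq2 on the same counts called 2587 genes, 1555 of them shared with edgeR. With the share of short genes detected at equal depth as a covariate (the form used in each such fit), edgeR called 96 genes. Of these, 70 were higher and 26 lower. In that fit the median standard error of a log2 fold change rose from 0.24 to 0.42, and all 1596 genes had the same direction as before. The part of short-gene detection in the result was not tested further.

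**Figure D2:**
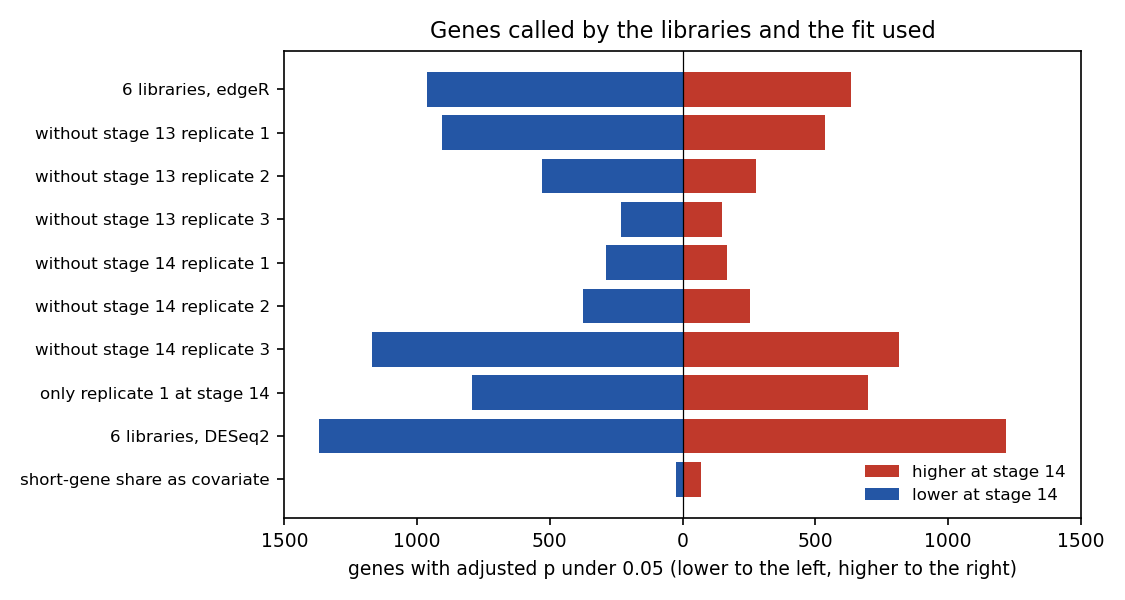
Number of genes with an adjusted p under 0.05 between hind limb stages 14 and 13, with genes higher at stage 14 to the right of 0 (red) and genes lower to the left (blue), for 10 choices of libraries and fit. The total runs from 96 genes with the short-gene share as a covariate to 2587 with DESeq2, against 1596 for the 6 libraries in edgeR.

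Changed genes were found at all levels of expression, and the balance of direction shifted with level. In the lowest quartile of mean level, below about 3.79 CPM, 75 of 3752 genes rose (2.00%) and 227 fell (6.05%). In the second quartile 176 rose (4.69%) and 366 fell (9.75%), the highest share called of the 4 classes at 14.4%. In the third quartile the numbers were 193 and 238. In the highest quartile, from about 60.5 CPM, the order was reversed, with 189 genes higher (5.04%) and 132 lower (3.52%). The median log2 fold change was -0.23 in the lowest quartile and between -0.03 and 0.06 in the other 3. The median standard error was 0.51 in the lowest quartile and 0.16 in the highest, so a change of a given size was harder to call among genes of low level.

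Length and isoform number sorted the genes less clearly. Genes under 300 bases gave 5 calls among 120 tested (4.17%). Genes from 300 to under 1000 bases gave 8.49% called, genes from 1000 to under 3000 bases 11.3% and genes of at least 3000 bases 10.9%. The middle class had 400 genes higher and 478 lower, and the longest class 166 higher and 332 lower. Among genes with 1 assembled isoform, 233 of 6050 rose and 447 fell. Among genes with at least 6 isoforms the order was the opposite, with 168 of 2976 rising and 111 falling. Isoform number and level are linked here, as the median level was 9.78 CPM for genes with 1 isoform and 36.0 CPM for genes with at least 6. RSEM divides reads that fit several sequences, and 12071 of the 15007 genes had an expected count that was not whole in at least 1 library (to within 0.005). The other 2936 genes, with whole counts throughout, had a median level of 1.54 CPM, and 67 rose while 274 fell.

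The gene comp114335_c0, of 1824 bases with 1 isoform, was the most abundant of the genes that rose and met the rule for being named. Its level, in CPM scaled over the 16 bat libraries, was 1252, 937 and 1079.8 in stage 13 replicates 1, 2 and 3, and 2590.4, 1942 and 1731 at stage 14. The lowest stage 14 library stood above the highest stage 13 library. The log2 fold change was 0.93 (SE 0.20), a 1.90-fold rise, with an edgeR adjusted p of 0.0199. The call was lost without stage 13 replicate 2 or 3 or stage 14 replicate 1 or 2, with edgeR adjusted p between 0.0544 and 0.0804. It was also lost with the share of short genes as a covariate (log2 fold change of 0.63, edgeR adjusted p of 0.496) and with the level of the gene of largest fall as a covariate in 16 libraries (edgeR adjusted p of 0.262). At stage 15 the level was 2718 and 3113 CPM. In the forelimb it went from 1178, 1364 and 1006 CPM to 1714, 1654 and 1576 CPM, again without overlap, a log2 fold change of 0.49 that did not pass the test (edgeR adjusted p of 0.128).

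The most abundant gene that fell, comp122253_c1, has 1565 bases and 1 isoform. It was at 2853, 2613 and 2555 CPM at stage 13 and at 1442, 1828 and 1914 CPM at stage 14. The stages did not overlap, and the fall was narrow in comparison with the spread. The log2 fold change was -0.64 (SE 0.17) with an edgeR adjusted p of 0.0440. Without any 1 of the libraries other than stage 14 replicate 3, the edgeR adjusted p was between 0.0924 and 0.113. With the same covariates it was 0.609 and 0.526. At stage 15 the gene was at 1679.6 and 1366 CPM. In the forelimb, stage 13 replicates 1 and 2 stood at 1615 and 1716 CPM and replicate 3 at 2418 CPM, and stage 14 at 1427, 1561 and 1387 CPM. Forelimb replicate 3 was thus the forelimb library nearest to the stage 13 hind limb. Per length, this gene was also the more abundant of the pair at stage 13, at 2052 to 2327 FPKM against 644 to 841 FPKM for comp114335_c0. At stage 14 the ranges overlapped, at 1093 to 1556 FPKM and 1158 to 1616 FPKM.

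Among genes of at least 1000 bases with at least 10 counts in all 6 libraries, comp124332_c0 had the largest rise. This gene has 1 isoform of 3617 bases. Its rounded counts were 12, 19 and 19 at stage 13 and 256, 322 and 377 at stage 14. In CPM these are 0.720, 1.07 and 0.804 against 9.75, 5.41 and 20.7, so the stages were far apart, and stage 14 itself was spread more widely than stage 13. The log2 fold change was 3.76 (SE 0.51), a 13.5-fold rise, with an edgeR adjusted p of 0.00427, and the call held in each of the 21 alternative fits. The stage 15 hind limb libraries were higher still, at 46.1 and 35.3 CPM. In the forelimb the gene was already at 6.55, 10.7 and 10.1 CPM at stage 13, within the range of the stage 14 hind limb, and at 34.0, 32.4 and 30.0 CPM at stage 14. The forelimb rise was 1.84 on the log2 scale (edgeR adjusted p of 0.00438). The difference of -1.92 between the limbs' log2 fold changes had an unadjusted p of 0.00491 in the edgeR fit and an adjusted p of 0.863.

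The largest fall under the same rule was that of comp124770_c0, which has 14 isoforms and a mean length between 11833 and 13510 bases in the 6 libraries. It had 9277, 16225 and 25898 counts at stage 13 and 659, 1015 and 140 at stage 14. The levels were 556, 911 and 1096 CPM against 25.1, 17.0 and 7.67 CPM. The log2 fold change was -5.68 (SE 0.53), a 51.3-fold fall with an edgeR adjusted p of 0.00404. This gene did not follow stage outside these 6 libraries. At stage 15 it was back at 865 and 758 CPM. In the forelimb it was at 932, 18.2 and 1275 CPM at stage 13, at 11.7, 23.7 and 14.5 CPM at stage 14, and at 882 and 20.9 CPM at stage 15. All 16 libraries were therefore either at or above 556 CPM (8 libraries) or at or below 25.1 CPM (8 libraries), a gap of 22.2-fold with no library in between.

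**Figure D3:**
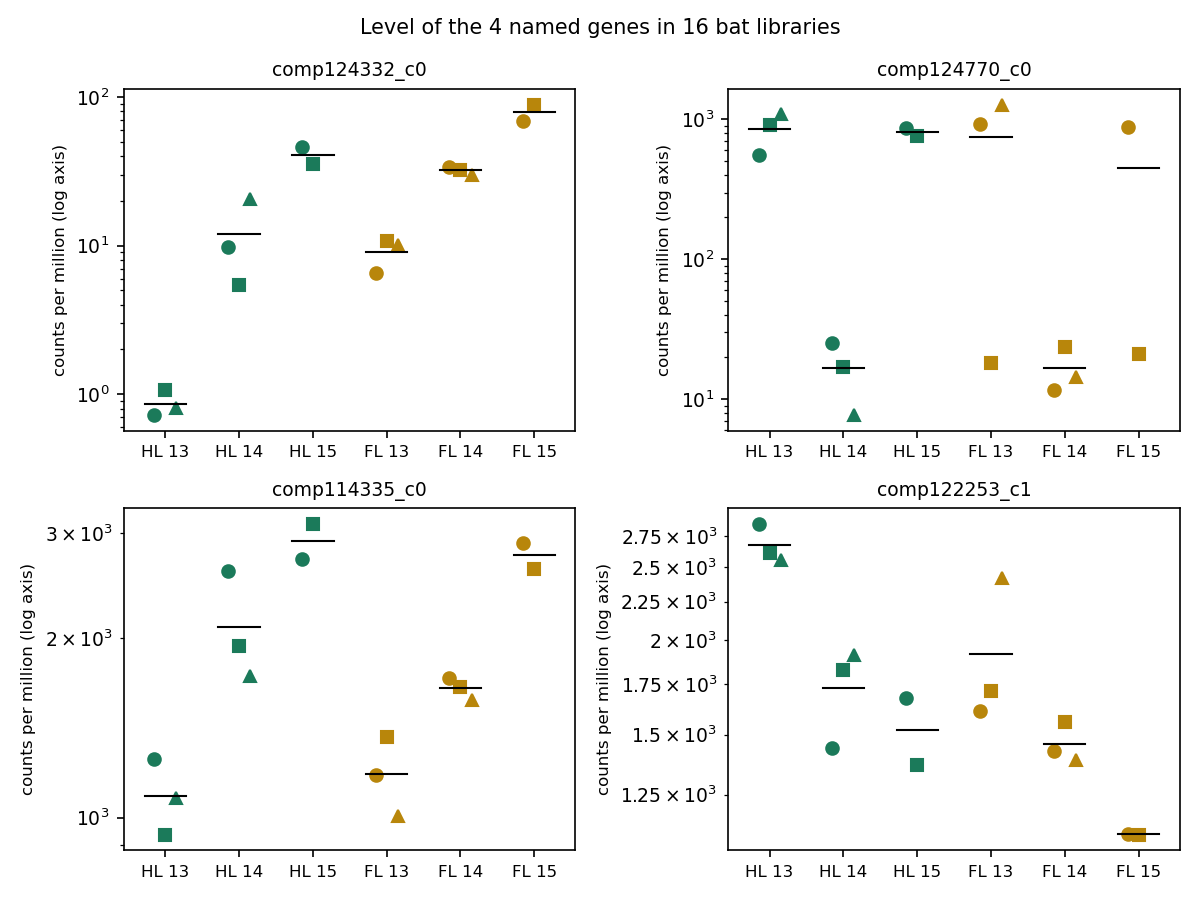
CPM (log axis) of the 4 genes in the 16 bat libraries, hind limb (HL, green) and forelimb (FL, gold) at stages 13, 14 and 15. Circles, squares and triangles are replicates 1, 2 and 3, and lines are group means. The group means of comp124332_c0 and comp114335_c0 are higher at each later stage in both limbs, while comp124770_c0 stands either near 1000 CPM or near 20 CPM in each library, with both levels present in forelimb stages 13 and 15.

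A set of 10 other genes parted the same 16 libraries in the opposite way, with a gap of more than 2-fold and no library out of place. All 10 were called higher at hind limb stage 14, and 8 of them were among the 10 largest fitted rises. In the 8 libraries where they were low, 5 of the 10 had at most 3 counts in each library, and 4 of the 10 had no count in any stage 13 hind limb library. None of the 10 passed the test in the forelimb, where 1 stage 13 library stood with the stage 14 libraries. These 11 genes were singled out after their values were seen. In the hind limb the division coincides with the stages, with 3 stage 13 and 2 stage 15 libraries on one side and 3 stage 14 libraries on the other, so within the 6 libraries it cannot be told apart from stage. The labels name no property of the embryos that divides the libraries in this way, and what divides them was not tested. Several of the largest changes in the hind limb comparison thus belong to a division that does not follow stage across the bat libraries. When the level of comp124770_c0 entered a fit of all 16 libraries as a covariate, the calls between hind limb stages went from 2213 to 21 (18 higher, 3 lower). The median standard error of a log2 fold change was 0.23 without and 0.35 with the covariate, and 1579 of the 1596 genes had the same direction. Each limb and stage had its own term in that fit, so the covariate's slope came from differences within groups. Only forelimb stages 13 and 15 held both levels of comp124770_c0. The fit therefore cannot tell how many of the calls belong to the division. In either direction, 19 genes had no overlap between the same libraries.

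The same stage contrast was available in the forelimb from 6 other libraries. These may not all come from other embryos, since stage 13 hind limb replicate 3 and stage 13 forelimb replicate 1 carry the same specimen number in their file names. The forelimb test called 444 of 14630 genes (3.03%), with 322 higher and 122 lower at stage 14, and DESeq2 called 1244. With 1 forelimb library left out, the count was 143, 281 and 689 without stage 13 replicates 1, 2 and 3, and 73, 107 and 156 without stage 14 replicates 1, 2 and 3. Among the 1553 hind limb calls that were also tested in the forelimb, 1521 (97.9%) had a log2 fold change of the same sign there, against 73.1% of all 14414 genes tested in both limbs. By direction, 623 of 633 genes that rose in the hind limb had a positive forelimb log2 fold change, with a median of 0.58, and 898 of 920 genes that fell had a negative one, with a median of -0.81. Of the hind limb calls tested in both limbs 12.8% were also called in the forelimb, which is 45.5% of the forelimb calls, 197 in the same and 2 in the opposite direction. Across the 14414 genes, which are not independent replicates, the log2 fold changes of the limbs had a Pearson r of 0.67 and a Spearman rho of 0.65. The division by comp124770_c0 runs largely with stage in the forelimb as well. Stage 13 forelimb replicates 1 and 3 stood at 932 and 1275 CPM and replicate 2 at 18.2 CPM. The stage 14 forelimb libraries stood between 11.7 and 23.7 CPM. What part this division has in the shared direction was not tested.

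This likeness rested in part on 1 forelimb library. Without stage 13 forelimb replicate 3, 84.9% of the hind limb calls had the same sign in the forelimb, against 63.3% of all genes tested in both limbs. The share was 91.3% for the genes that rose and 80.3% for those that fell. The median forelimb log2 fold change went from 0.58 to 0.48 for the rises and from -0.81 to -0.27 for the falls. Without any other forelimb library the share of calls was between 96.9% and 98.3%. Forelimb replicate 3 also had a share of short genes detected of 23.1%, against 11.7% and 8.90% in the other stage 13 forelimb libraries. Its share of counts in the genes that fell in the hind limb was 4.93%, above each stage 13 hind limb library (4.25% to 4.89%), whereas forelimb replicates 1 and 2 had 2.85% and 2.69%. The genes that rose took 3.26% of its counts, against 3.59% and 4.28% in the other pair. At stage 14 the forelimb shares were close to those of the hind limb, at 5.34% ± 0.0935 (SD, n = 3) for the genes that rose and 2.22% ± 0.109 (SD, n = 3) for those that fell.

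**Figure D4:**
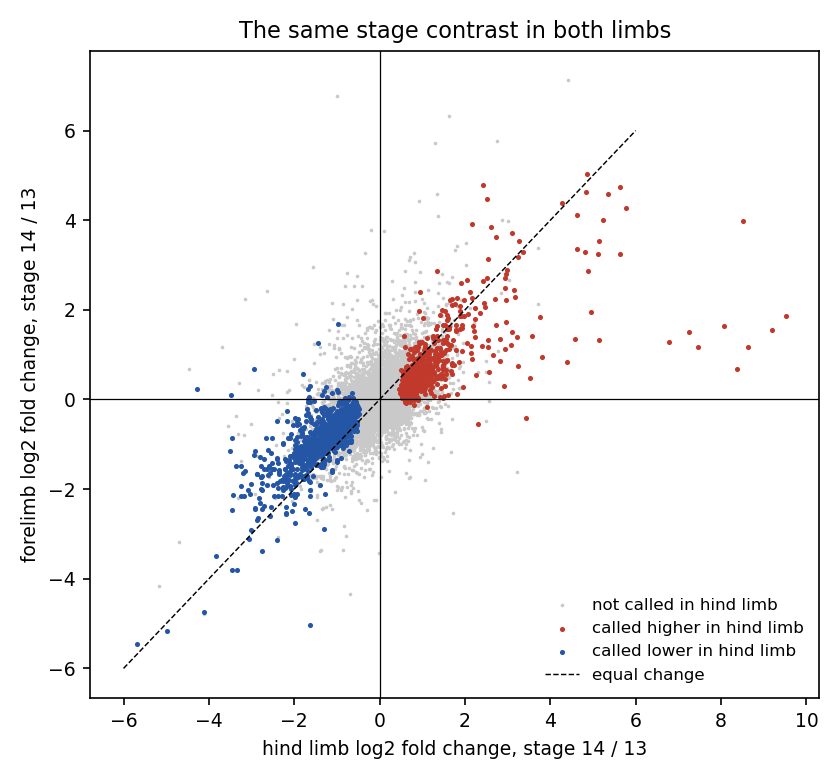
Forelimb log2 fold change (vertical axis) against hind limb log2 fold change (horizontal axis), stage 14 over stage 13, for the 14414 genes tested in both limbs. Red and blue points are genes called higher and lower in the hind limb, grey points the others, and the dashed line marks equal change; 1521 of the 1553 coloured points lie in the upper right or lower left quadrant.

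The hind limb change was the larger in 1397 of those 1553 genes (90.0%). The genes were chosen for their hind limb change, which alone favours a larger value there, so the difference between the limbs was tested directly. The interaction of stage and limb over 12 libraries gave 0 of 15676 genes (0.0%) at an edgeR adjusted p under 0.05, with a lowest adjusted p of 0.0811. At an unadjusted p under 0.05 there were 830 genes, and DESeq2 called 88. Among the 1596 hind limb calls, 211 had an unadjusted interaction p under 0.05. The median standard error of the interaction was 0.35 on the log2 scale. In simulated counts the same fit recovered 63.6% of genes with a 4-fold difference between the limbs, and smaller differences could be missed. Those counts were drawn independently for each gene, with no effect shared across a library, so recovery in the real libraries may differ.

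**Figure D5:**
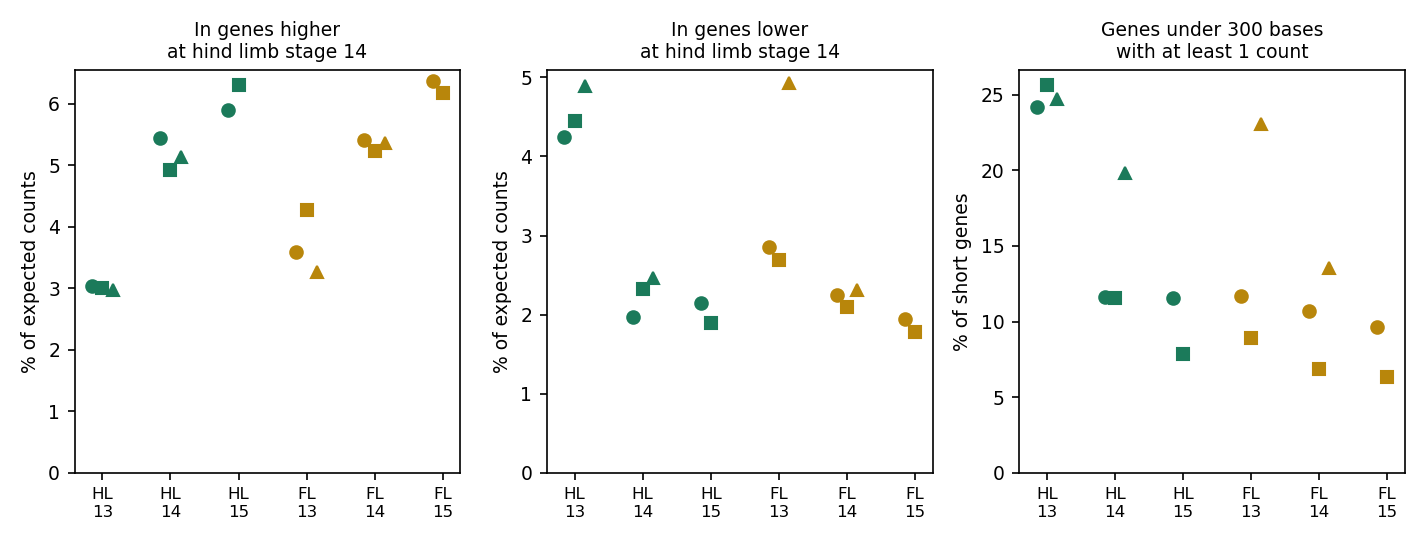
Share of each library's expected counts in the 633 genes higher and the 963 genes lower at hind limb stage 14 (left and middle), and share of genes under 300 bases with at least 1 count (right), for hind limb (HL, green) and forelimb (FL, gold) libraries at stages 13, 14 and 15. Circles, squares and triangles are replicates 1, 2 and 3; in the middle and right panels, forelimb stage 13 replicate 3 (4.93% and 23.1%) stands with the stage 13 hind limb libraries.

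The 2 stage 15 hind limb libraries show where the levels stood a stage later. The genes that rose took 5.90% and 6.31% of the counts at stage 15, above each stage 14 library (4.92% to 5.44%). The genes that fell took 2.14% and 1.89%, close to stage 14 (1.97% to 2.46%). In the division by the level of comp124770_c0, both stage 15 libraries stood with stage 13. The comparisons of stage 14 with 13 and of stage 15 with 14 share the stage 14 libraries, so their values are given side by side only. For the 633 genes that rose, the median log2 fold change was 0.94 from stage 13 to 14 and 0.20 from stage 14 to 15, where 63 were called higher and 23 lower. For the 887 genes that fell and were tested in both, the medians were -1.24 and -0.22, and at the later step 24 were called higher and 31 lower. Over the 14417 genes tested in both, the medians were 0.02 and -0.02, and 661 genes (4.58%) were called at the later step.

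Whole profiles were compared by Spearman coefficients of the deposited FPKM over 23858 genes. Within stage 13 the 3 coefficients ranged from 0.782 to 0.800. Within stage 14, replicates 1 and 2 had a coefficient of 0.915, while replicate 3 had 0.795 and 0.794 with them. Between the stages the 9 coefficients ranged from 0.740 to 0.800. Replicate 3 of stage 14 was therefore about as close to the stage 13 libraries (0.784 to 0.800) as to the other libraries of its own stage. The mean coefficient within stages was 0.0400 above that between stages, with an exact permutation p of 0.1 (two-sided, n = 3 and 3), the smallest p possible. The difference was 0.0137 without stage 14 replicate 1 and 0.0150 without stage 14 replicate 2, and between 0.0453 and 0.0601 without any other library.

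The study measures variation among individuals by the coefficient of variation (CoV), the standard deviation divided by the mean. It did so by qPCR of selected genes in mouse embryos and pooled ridge and bud as its early stage. The values here are from RNASeq of bat libraries and are not comparable with those. Here the median CoV over 18272 genes was taken for each pair of libraries. At stage 13 the 3 pairs gave 0.165, 0.188 and 0.154, and at stage 14 they gave 0.171, 0.221 and 0.163. The means over pairs were 0.169 and 0.185, and the ranges overlapped. The difference of 0.0162 was smaller than the mean SD between pairs, 0.0243. Pairs of a stage share libraries, so this SD is a rough guide only. The difference turned to -0.0026 without stage 13 replicate 2 and to -0.0055 without stage 14 replicate 1. No difference between the stages in the variation among these libraries was resolved.

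RSEM also reports, for genes with several isoforms, a length weighted by the isoforms in use. The test took 7872 such genes with at least 10 counts in all 6 libraries, leaving out genes whose length hardly varied between the libraries. Of the 7872, 255 (3.24%) differed in weighted length between the stages at a limma adjusted p under 0.05. At stage 14, 89 were longer and 166 shorter. The median size of the change among them was 0.24 on the log2 scale, or 17.7% of the length, and 34 changed by more than 1.5-fold. Of the 255 genes, 25 (9.80%) were also called in expression, against 10.2% of all genes tested for length. The number of calls varied from 15 without stage 14 replicate 2 to 153 without stage 14 replicate 3, and each of the other libraries left out gave between 63 and 101. With the replicate number as a block there were 0 calls, although these numbers did not pair the libraries.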

How the data were processed

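Limbs were dissected from staged embryos and sequenced as single-end RNASeq libraries. The authors trimmed the reads and pooled the bat libraries for a de novo assembly in Trinity, of which only sequences matching SwissProt proteins by blastx were retained. Reads were then mapped to these with RSEM through bowtie. Versions are not given in the sources used here. The deposited expected counts estimate how many reads belong to each gene, without normalization. The deposited FPKM were normalized by the authors' RSEM run for effective length and depth, and the deposited TPM, scaled to a common total, were not used. The deposited gene lengths, in bases, are means weighted by isoform, and for genes of 1 isoform over 1000 bases the effective length was 299 bases shorter in each library.

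Expected counts were rounded and tested with edgeR 4.0.16 (R 4.3.3): TMM factors (0.953 to 1.04), robust quasi-likelihood fit, no covariate, Benjamini-Hochberg adjustment over all genes tested, threshold 0.05. Changes past 1.5-fold used the same fit with glmTreat. The forelimb and the interaction used the same steps on 6 and 12 libraries. DESeq2 1.42.0 was an alternative. Weighted lengths were tested with limma 3.58.1 on the log2 scale, without genes of nearly constant length. Differences in the share of short genes and in Spearman coefficients used exact permutation tests. CoV used FPKM divided by size factors, for genes with a mean of at least 1. Log2 differences of single libraries used CPM plus 0.1. Other steps used Python 3.11.15 with pandas 2.3.3, numpy 2.4.6 and scipy 1.17.1.

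Total expected counts ran from 16285242 to 61814821 over the 6 libraries. Chi-square per degree of freedom between replicates was between 29.0 and 72.1, so no library was a copy of another. In simulated counts, edgeR recovered 44.4% of genes changed 2-fold with 8.33% of calls false, and 78.8% of genes changed 4-fold with 7.14% false; DESeq2 recovered 59.6% and 85.4% with 26.3% and 17.6% false. The test past 1.5-fold recovered 0% of genes changed 2-fold, where its 1 call was false. It recovered 75.3% of genes changed 4-fold with 2.61% false. These runs changed 198 of 14707 genes 2-fold or 198 of 14678 genes 4-fold, each gene drawn independently. Recovery and the false share may therefore differ in the real libraries, where more genes were called. For weighted length, limma recovered 89.5% of genes changed 1.5-fold with 6.28% false.

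The genes named are, among genes called with at least 10 counts in all 6 libraries, a length of at least 1000 bases and no overlap between the stages, the largest rise, the largest fall, and the rising and falling gene of highest level. The files do not pair identifiers with gene names, and none matched the reference tables used here. The comparison, its gene classes and its tests were chosen with earlier results of these data known. Weighted length, the share of hind limb calls with the same sign in the forelimb, the genes that part the 16 libraries and the fit with the level of 1 gene as a covariate were added after the files were seen. Alternatives were other scalings, filters, depths, tools and covariates, a replicate block, and each library left out in turn. Mouse, opossum and pig samples were not analysed here.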

Additional observations from a re-analysis of the deposited data

How the results depend on the processing

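Over 13 results and 206 alternative values, 148 kept their direction and side of the threshold or stayed within the limit for a count. For hind limb genes changed (1596), leaving out 1 library gave 379 to 1986; DESeq2 gave 2587, genes with whole expected counts 284 of 2936 (with a median shift of 0.25 on the log2 scale), the share of short genes as a covariate 96, and 16 libraries with the level of comp124770_c0 as a covariate 21 (18 higher, 3 lower), where the median standard error was 0.35 and 1579 of the 1596 genes had the same direction. That gene's level and the stage move together in the hind limb, and the covariate's slope came from differences within groups. The fit cannot tell how many calls belong to the division, and the cause was not tested. The 16 libraries without that covariate gave 2213, with 50.4% higher against 39.7% in the 6 libraries. Past 1.5-fold (295), leaving out 1 library gave 38 to 480 and whole counts gave 62. In the forelimb (444), leaving out 1 library gave 73 to 689 and DESeq2 1244. For the difference between the limbs (0), leaving out 1 library gave 0 to 5, no filter 1, matched depth 1, genes of at least 1000 bases 2 and DESeq2 88. For weighted length (255), leaving out 1 library gave 15 to 153. The share of hind limb calls with the same sign in the forelimb ran from 84.9% to 98.3% with 1 forelimb library left out, and the CoV difference from -0.0055 to 0.0520 with 1 hind limb library left out. The short-gene difference of -10.5 percentage points was -1.25 when a gene needed 3 counts to be detected. The 4 named genes kept the sign of their change in all 21 alternatives each. For comp124770_c0, 1 of these used its own level as the covariate, which removes its change by construction (log2 fold change of -0.00104). The call was lost in 6 alternatives for comp114335_c0 and in 7 for comp122253_c1.

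Replicate numbers did not pair the libraries: the correlations of same-numbered deviations between hind limb stages were 0.12, -0.16 and -0.11, and not every library correlated best with its own number. With the number as a replicate block the counts were 1775 in the hind limb, 306 past 1.5-fold, 851 in the forelimb, 5 for the interaction (block within each stage) and 0 for weighted length (1223 at an unadjusted p under 0.05), where the cause was not tested.

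Depth and spread limit small changes: edgeR recovered 44.4% of 2-fold changes in simulation with 3 libraries a stage, short genes and low counts carry large errors, and identifiers without names leave the tissue unchecked.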
